A study of Homo sapiens with 6 samples.

Results

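The genes described here serve protein folding, translocation and quality control in the endoplasmic reticulum (ER) and the unfolded protein response that watches over it. The 34 members are listed by their known role in these processes, out of 11227 genes with a row in the tables. All 34 had a row in each table. They were read in the human melanoma line CHL-1, long established in culture, by ribosome profiling, which sequences the messenger fragments that ribosomes protect. The 3 conditions were the untreated parental line, a line edited by CRISPR at SNORD50A/B (small nucleolar RNA genes), and cells exposed for 20 minutes to 10 mM AZC plus 20 µM MG132. AZC, L-azetidine-2-carboxylic acid, is a proline analog that is built into new proteins and disturbs their folding, and MG132 blocks the proteasome. All cells grew in the same medium and were lysed with cycloheximide, which holds ribosomes in place.

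Each condition had 2 libraries, 1 of them labelled as cleared of ribosomal RNA, but only 1 table of values, so no spread between libraries can be given. Every difference below is between single tables and carries no test, and 2-fold is used as a limit of size only. The labels name no control-edited line and no vehicle control, and they do not say whether the edited line is 1 clone. The edit cannot be checked in footprints of messengers.

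Proteins bound for secretion or for membranes enter the ER through the Sec61 channel, fold there with the help of the HSP70 chaperone BiP (HSPA5), of the calnexin and calreticulin lectins and of disulfide isomerases, and are passed to the cytosol for degradation (ERAD) when folding fails. Unfolded protein in the ER releases the membrane sensors ATF6, IRE1 (ERN1) and PERK, which raise chaperone and ERAD genes through the transcription factors ATF6, XBP1 and ATF4. ATF6 and XBP1 act on the ER stress elements ERSE and ERSE-II in promoters, and ATF4 on the composite element CARE.

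These promoter elements are shown first because they are the link by which members of the set are known to be induced together. RefSeq promoters of build GRCh38.p14, running from 250 bases before to 50 bases after the start, were found for 32 of the 34 members, all but DERL1 and PDIA3. ERSE was searched on both strands as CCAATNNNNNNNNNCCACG and ERSE-II as ATTGG, then any 1 base, then CCACG. In the sequences the capitals mark the fixed letters of the element, and each is written 5′ to 3′ on the strand that holds it.
HSPA5, ERSE, chr9:125241391-125241409, minus strand: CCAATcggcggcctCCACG
XBP1, ERSE, chr22:28800603-28800621, minus strand: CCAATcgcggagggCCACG
HSP90B1, ERSE, chr12:103930216-103930234, plus strand: CCAATcggaaggagCCACG
CALR, ERSE, chr19:12938384-12938402, minus strand: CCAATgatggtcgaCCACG
PDIA6, ERSE, chr2:10812853-10812871, minus strand: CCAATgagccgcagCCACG
CRELD2, ERSE, chr22:49918554-49918572, minus strand: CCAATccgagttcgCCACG
HERPUD1, ERSE-II, chr16:56932025-56932035, plus strand: ATTGGgCCACG
HYOU1, ERSE-II, chr11:119057274-119057284, plus strand: ATTGGaCCACG
SDF2L1, ERSE-II, chr22:21642114-21642124, minus strand: ATTGGtCCACG

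ERSE was present in 7 of 32 member promoters (21.9%, these 6 and CANX) against 25 of 27305 promoters of all genes (0.0916%). ERSE-II was present in 3 members (9.38%) against 19 of all genes (0.0696%). HSP90B1 held a second ERSE and HYOU1 a second ERSE-II. The CARE letters TGATGNAAN were found in the promoter of HERPUD1 alone among the members, 1 of 32 (3.125%) against 4.45% of all promoters. They lie at chr16:56931965-56931973 on the minus strand.
HERPUD1, CARE: TGATGcAAc
A match describes the letters in this window and is not a measured binding site.

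The level of a gene below is its footprint depth over the 400 bins of its transcript row, per 1000000 of the table's depth. It mixes the amount of messenger with the ribosomes on each messenger, which cannot be told apart here, and in a bulk sample fewer cells of a kind and less RNA per cell cannot be told apart either. Bins carry no transcript length, so levels are compared between tables for 1 gene and never between genes. A log2 ratio of 1 is 2-fold. Total depth, in units of 1000000, was 473.7 for the parental, 367.3 for the AZC + MG132 and 586.4 for the CRISPR table. Although its total was the highest, the CRISPR table had the fewest coding bins with any depth per gene. This held for the median over all genes and for the median over the members. The part of this sparser coverage in empty or shifted bins of single genes in the CRISPR table was not tested. All 34 members were above the level minimum, the lower quartile of row depth, in all 3 tables, as were 7073 genes. The members held 0.998% of the parental, 0.977% of the AZC + MG132 and 0.890% of the CRISPR depth. Melanocyte lineage markers were listed for 6, 6 and 5 of 8 genes with summed levels of 439, 380 and 412, PMEL and MLANA among the listed and TYR and TYRP1 at no row. Of those listed, only 2, 3 and 4 were above the level minimum. Of markers for keratinocytes, leukocytes, endothelium, hepatocytes and secretory cells only KRT10, and in the CRISPR table PTPRC below the minimum, had a row. KRT10 was above the minimum in each table, at 11.6, 8.28 and 7.77.

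**Figure D1:**
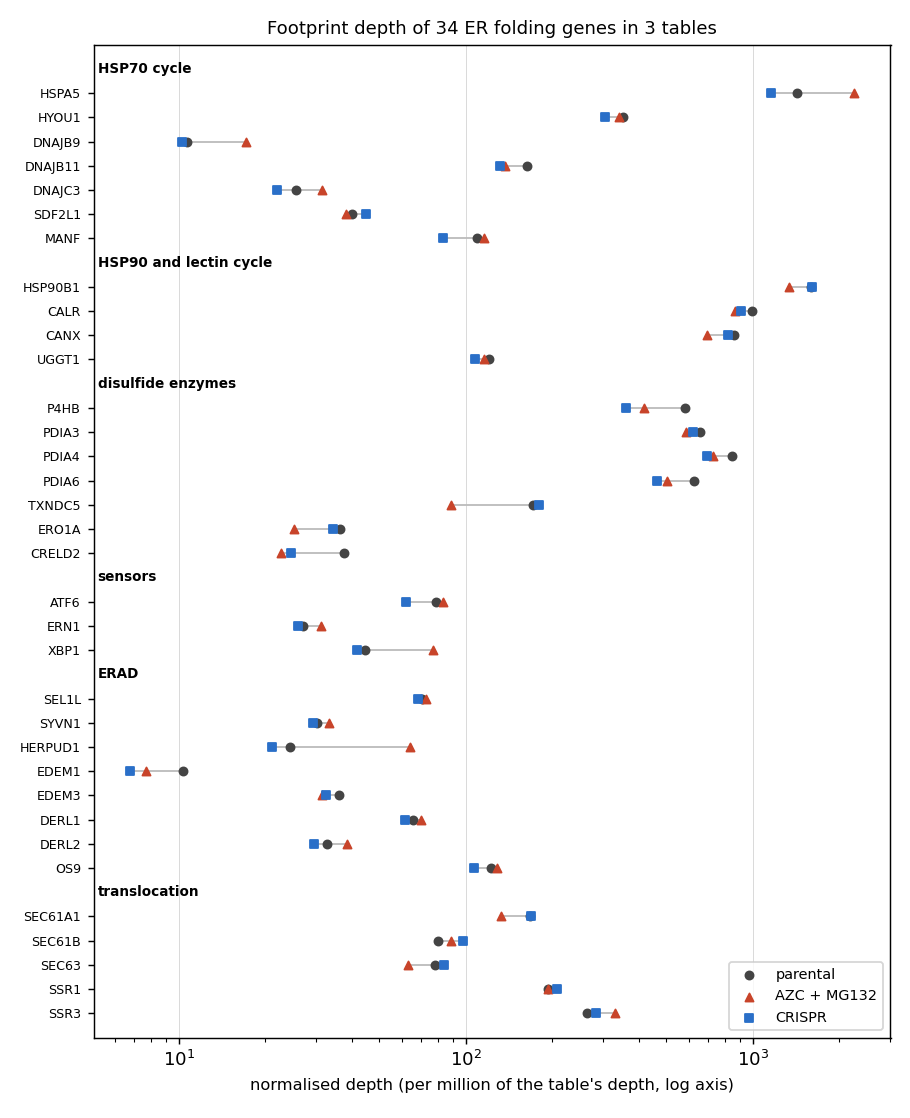
Normalised footprint depth (log axis) of the 34 members in the parental (circle), AZC + MG132 (triangle) and CRISPR (square) tables, grouped by role, with a grey line from the lowest to the highest table. HERPUD1 (24.4, 63.8 and 21.1) has the widest spread, and most other members lie within a narrow band.

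The treated cells showed 1 member of the set far above parental, HERPUD1. The median log2 ratio of AZC + MG132 against parental was -0.05 over the 34 members and -0.05 over the 7277 genes compared. Of the members, 16 were above 0 and 18 below (17 and 17 when ratios were scaled to the median of all genes). Of all genes 44.7% were above 0. HERPUD1 was the only member past 2-fold higher, 1 of 34 where 0.866% of all genes were. None was past 2-fold lower, where 2.39% of all genes were. Medians by role were 0.20 for the 3 genes of the sensor group, 0.09 for the 8 ERAD genes and 0.07 for the 7 genes of the HSP70 cycle. They were 0.00 for the 5 translocation genes, -0.22 for the 4 genes of the HSP90 and lectin cycle and -0.47 for the 7 disulfide enzymes. The sensor group is ATF6, ERN1 and XBP1, of which XBP1 is a transcription factor and not a sensor.

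In the edited line the members' median was below that of all genes. The median of CRISPR against parental was -0.11 over the members and 0.00 over 7540 genes. Below 0 were 26 of 34 members and 3736 of the 7540 genes, and 8 members were above. No member was past 2-fold in either direction, where 1.1% of all genes were higher and 1.3% lower. Both comparisons use the same parental table, so their values are set side by side and not related to each other. Between the edited and the treated cells, TXNDC5 was past 2-fold higher in the CRISPR table (4.13% of 7219 genes were) and HERPUD1 past 2-fold lower (2.33% were), and the members' median was -0.11 against 0.06 for all genes. TXNDC5 was inside 2-fold under both other scalings, where HSPA5 joined HERPUD1 past 2-fold lower, and in the last 100 coding bins the members' median was 0.16.

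**Figure D2:**
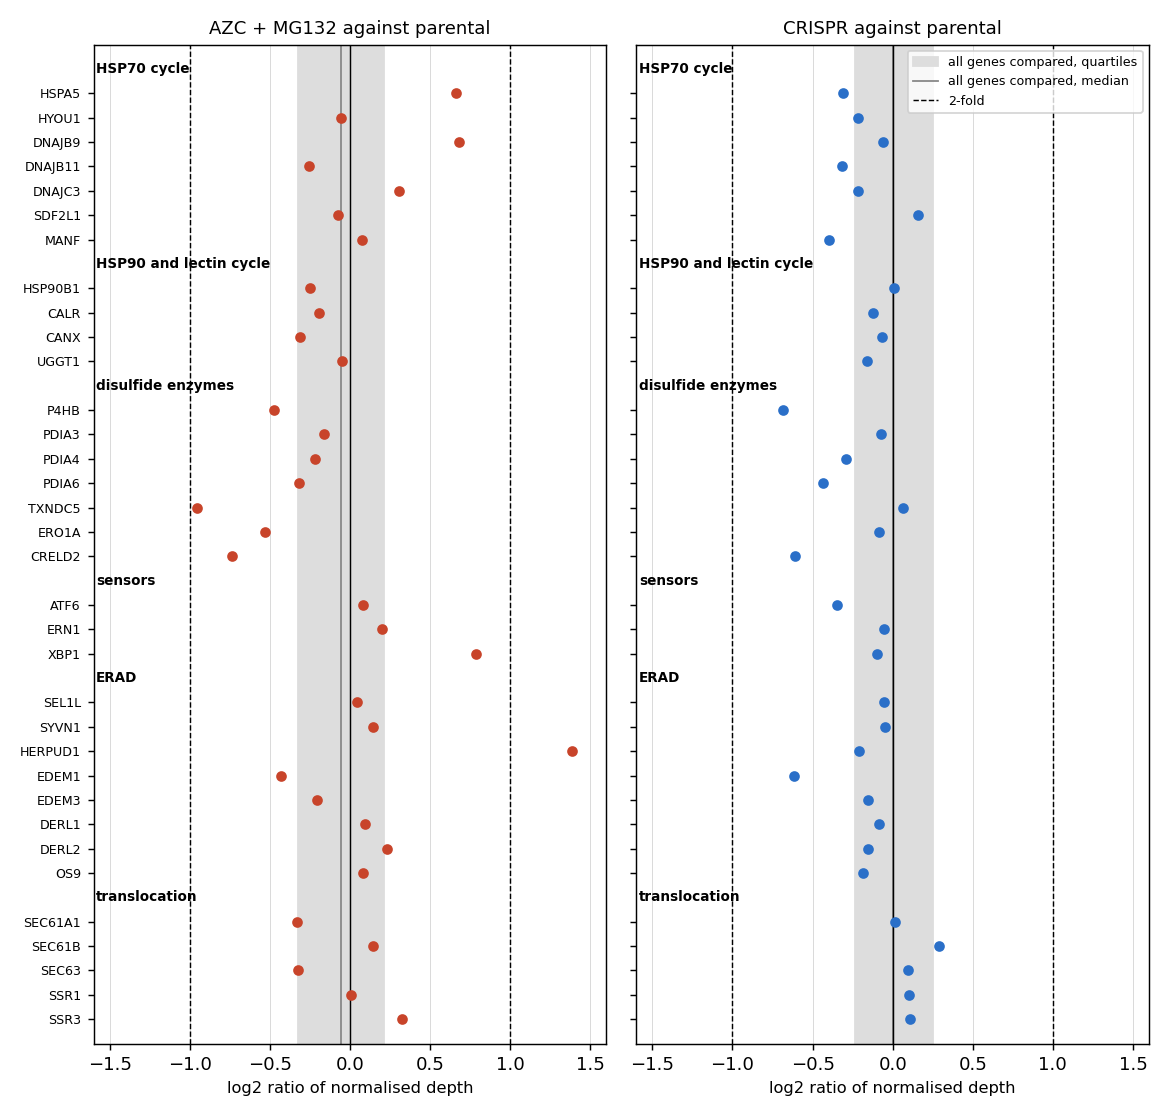
Log2 ratio of normalised depth for each member, AZC + MG132 against parental (left) and CRISPR against parental (right), with the quartile band and median of all genes compared in grey and 2-fold as dashed lines; both panels share the parental table. On the left HERPUD1 (1.39) lies past 2-fold and all 7 disulfide enzymes lie below 0. On the right the 5 translocation genes lie above 0 and the 8 ERAD genes below. Over all genes compared, 44.7% were above 0 on the left and 50.5% on the right.

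Among the chaperones of the HSP70 cycle, HSPA5, the BiP chaperone that binds unfolded chains and holds the sensors inactive, stood at 1429 in the parental, 2258 in the AZC + MG132 and 1153 in the CRISPR table. The treated table is the highest and the edited table the lowest. The log2 ratios were 0.66 (1.58-fold) for AZC + MG132 and -0.31 (0.807-fold) for CRISPR, each against parental. Both ends of the coding row gave the same direction for the treated cells, 0.50 in the first 100 bins and 0.66 in the last 100.

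DNAJB9, a J-domain co-chaperone that directs BiP to misfolded clients and to IRE1, stood at 10.7, 17.1 and 10.3 in the same order of tables. Its treated ratio of 0.68 was 0.07 in the middle 160 coding bins, so the higher depth lay toward the ends of the coding row and outside it. DNAJC3, the co-chaperone also known as P58IPK, stood at 25.6, 31.6 and 22.02. Its CRISPR ratio was -1.003 in the first 100 coding bins and 0.24 in the last 100, so no single direction holds along this gene.

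MANF, a small secreted protein that binds BiP, stood at 109.6, 115.3 and 83.4, a log2 ratio of -0.40 for CRISPR against parental. SDF2L1, a partner of the ER J-domain proteins, stood at 40.1, 38.2 and 44.7. It was the only gene of the HSP70 cycle above 0 in the CRISPR comparison, at 0.16, and its first and last 100 coding bins disagreed (-0.41 and 0.57). HYOU1, the nucleotide exchange factor of BiP, stood at 354.2, 340.8 and 304.8, and DNAJB11, another BiP co-chaperone, at 163.3, 136.6 and 131.4. Their treated ratios were -0.06 and -0.26, and their CRISPR ratios -0.22 and -0.31. HYOU1 and SDF2L1, which hold ERSE-II, stood near parental in the treated table. HERPUD1, the only other member with ERSE-II, had the highest treated ratio of the set, 1.39. BiP, which holds ERSE, and DNAJB9, whose window holds neither element, were also above parental.

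The HSP90 and lectin cycle covers GRP94 (HSP90B1), the HSP90 of the ER, the lectins calreticulin (CALR) and calnexin (CANX), and UGGT1, which marks unfolded glycoproteins for another round of folding. HSP90B1 stood at 1596 in the parental, 1340.4 in the AZC + MG132 and 1604 in the CRISPR table. The treated table is the lowest, with log2 ratios of -0.25 for AZC + MG132 and 0.01 for CRISPR against parental. CALR stood at 993, 868 and 912 and CANX at 859.5, 693 and 821. UGGT1 stood at 120.3, 116.1 and 107.6. All 4 genes were below 0 in the treated cells (-0.31 to -0.05), but UGGT1 was above 0 when totals left out the most abundant 1% of rows or ratios were scaled to the median of all genes. In the CRISPR comparison the 4 genes ran from -0.16 to 0.01.

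The disulfide enzymes were the role group with the lowest treated values. All 7 were below 0 in AZC + MG132 against parental, from -0.96 to -0.16, and stayed below 0 under both other scalings. In the first 100 coding bins alone, 2 of the 7 (PDIA3 at 0.02 and PDIA4 at 0.21) were above 0. Over whole rows, 4025 of all 7277 genes were below 0. So were 7 of 13 other folding enzymes outside the members, while 6 were above. TXNDC5, a disulfide isomerase with several thioredoxin domains, stood at 172.1 in the parental, 88.6 in the AZC + MG132 and 180.3 in the CRISPR table. The treated table is the one apart, at a log2 ratio of -0.96 (0.515-fold) against parental, just inside 2-fold, with -0.98 in the first and -0.96 in the last 100 coding bins. The CRISPR table stood 2.03-fold above the treated one. TXNDC5 overlaps BMP6 and a readthrough transcript with BLOC1S5 in the gene table, so reads of these may be shared, and this was not tested.

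P4HB, the classical protein disulfide isomerase and a subunit of prolyl 4-hydroxylase, stood at 581, 419 and 361.9. It had the lowest CRISPR ratio of the set, -0.68, with -0.83 and -0.61 in the first and last 100 coding bins. Its treated ratio of -0.47 was -0.14 in the first and -0.81 in the last 100 bins. PDIA6, an isomerase that also quiets IRE1 signalling, stood at 626, 502 and 463, with ratios of -0.32 and -0.43. CRELD2, a secreted ER stress protein with thioredoxin-like motifs, stood at 37.6, 22.6 and 24.6. Its ratios of -0.73 and -0.61 were negative in the first and in the last 100 coding bins in both comparisons. ERO1A, the oxidase that recharges the isomerases, stood at 36.4, 25.2 and 34.4, so the treated table is the lowest and the edited one close to parental. PDIA3, the isomerase that works with the lectins, stood at 652, 584 and 621, and PDIA4 at 848, 729 and 694.

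Among the sensors, ATF6 stood at 78.7, 83.3 and 61.9, and ERN1 (IRE1) at 27.1, 31.2 and 26.1 in the parental, AZC + MG132 and CRISPR tables. ATF6, cleaved in the Golgi to give a transcription factor, had a CRISPR ratio of -0.35 that was alike in the first and last 100 coding bins (-0.37 and -0.35). XBP1, whose messenger is the substrate of IRE1, stood at 44.5, 76.8 and 41.7. The treated table is the highest, at a log2 ratio of 0.79 (1.72-fold), and the edited one close to parental, at -0.10. ATF6, ERN1 and XBP1 were all above 0 in the treated cells under each of the 3 scalings. ERN1 was at -0.01 in its first 100 coding bins, though, and ATF6 at -0.14 in its last 100.

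The XBP1 row is that of the unspliced messenger (NM_005080). As background, its protein is known to halt the ribosome close to its end, which brings the messenger to the ER membrane, and IRE1 removes a short intron there, shifting the frame into a longer coding sequence. In the last 20 of the 200 coding bins the XBP1 level was 8.18 in the parental, 21.3 in the AZC + MG132 and 4.84 in the CRISPR table. The treated table was 2.60-fold above parental there, against 1.40-fold in the first 180 bins. The start of the row was higher too. The first 10 coding bins held 0.505 in the parental and 3.18 in the treated table, and the 5′ UTR bins were 2.93-fold above parental. The last 10 bins held 17.03%, 28.6% and 9.87% of the XBP1 coding depth. Counted from the end of the coding sequence, the highest coding bin was bin 5 in the parental, bin 4 in the AZC + MG132 and bin 39 in the CRISPR table. Measured as the mean of the last 20 bins over the mean of all 200, XBP1 was at 2.35, 3.64 and 1.42, and 2.77%, 0.269% and 28.6% of genes were as high in their table. It had the highest such value of the 34 members in the parental and treated tables.

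Depth past the stop of the unspliced XBP1 reading frame made up 16.1%, 13.9% and 15.4% of the row, and at least 99.3% of it lay in the first 40 of the 100 3′ UTR bins. In the row of the spliced messenger (NM_001079539), where these bases are coding, 3′ UTR depth was 0, 0.457 and 0. The first 10 of the 3′ UTR bins held 1.64 in the parental, 7.23 in the treated and 2.20 in the CRISPR table, and the next 30 held 5.52, 3.37 and 4.19. So directly after the stop the treated table was the highest, and in the next 30 bins it was the lowest. Both stretches lie past the unspliced stop and are coding in the spliced form. Over all 3′ UTR bins of the unspliced row together, the treated table was the highest, 1.49-fold above parental. The spliced and the unspliced messenger share most of their bases, and how much of either was present cannot be told apart in these rows.

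**Figure D3:**
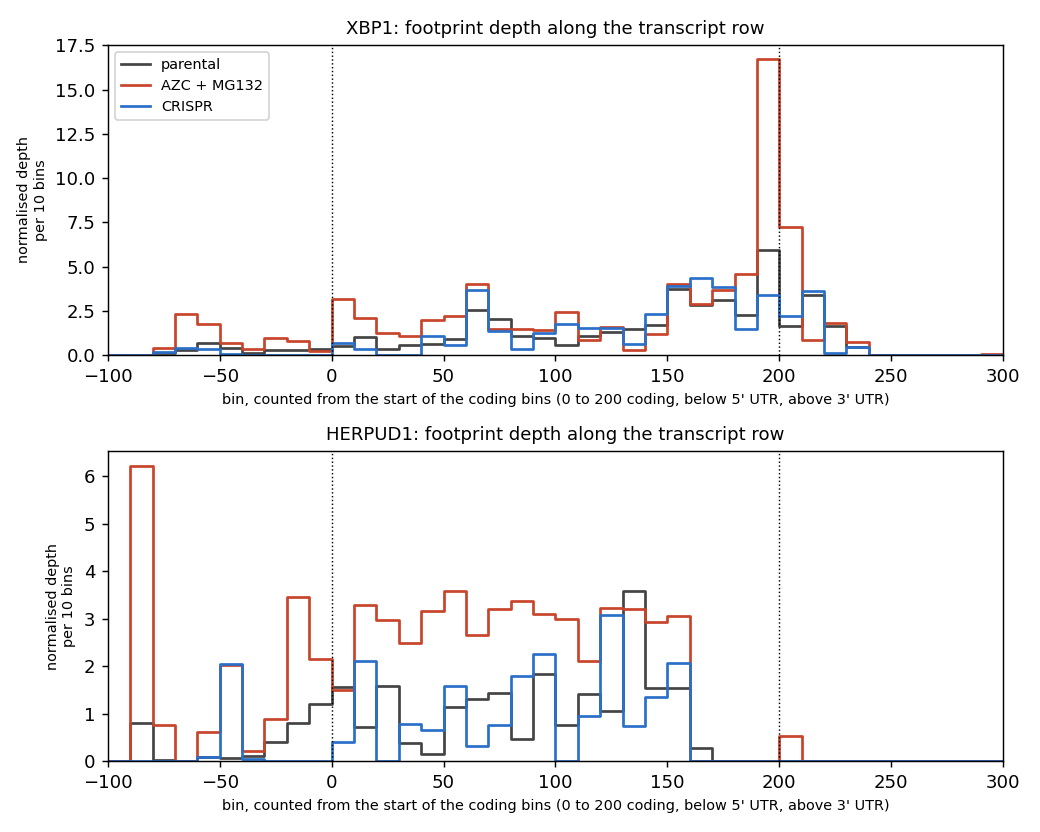
Normalised depth per 10 bins along the rows of XBP1 (top, unspliced form) and HERPUD1 (bottom) in the 3 tables, with dotted lines at the start and end of the 200 coding bins. XBP1 has a peak in the last 10 coding bins, 16.7 in the AZC + MG132 table against 5.92 for parental and 3.37 for CRISPR; HERPUD1 has treated depth above both other tables over most coding bins and a 5′ UTR peak of 6.22.

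In ERAD, HERPUD1, a membrane protein of the HRD1 ubiquitin ligase complex and the member whose promoter holds ERSE-II and CARE letters, stood at 24.4 in the parental, 63.8 in the AZC + MG132 and 21.1 in the CRISPR table. The treated table is far above both others. The log2 ratio was 1.39 (2.61-fold) against parental, 1.17 in coding bins only, 1.46 in the first and 0.78 in the last 100 coding bins. CRISPR against parental was -0.21, and CRISPR against AZC + MG132 was -1.596. The 5′ UTR of HERPUD1 held 14.5%, 25.6% and 10.5% of its depth, and the peak in its bins 11 to 20 was 0.802 in the parental, 6.22 in the treated and 0 in the CRISPR table. The last 32, 40 and 41 coding bins of this row held no depth in the parental, treated and CRISPR tables, so the level rests on the part before them.

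The other ERAD members showed smaller differences. SEL1L, the scaffold of the ligase complex, stood at 70.5, 72.8 and 68.04, and SYVN1, the HRD1 ligase itself, at 30.2, 33.4 and 29.2. OS9, a lectin that delivers clients to the ligase, stood at 121.9, 128.8 and 107.1, and DERL1, a channel protein, at 65.3, 69.5 and 61.6. For these 4 the treated table was the highest and the CRISPR table the lowest, with treated ratios of 0.05 to 0.15 and CRISPR ratios of -0.19 to -0.05. The treated direction did not hold along the rows, since SEL1L was at -0.03 over its coding bins and SYVN1 and DERL1 were at -0.35 and -0.22 in the last 100, where 2 of the 8 ERAD genes were above 0. EDEM1, a mannosidase that marks glycoproteins for disposal, stood at 10.3, 7.67 and 6.74, close to the level minimum in each table. Its ratios of -0.43 and -0.62 came from the last 100 coding bins (-1.25 and -1.38), while the first 100 gave -0.09 and -0.12. EDEM3, a related mannosidase, stood at 36.3, 31.5 and 32.7.

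All 8 ERAD genes were below 0 in CRISPR against parental under each of the 3 scalings, from -0.62 to -0.05. In the first 100 coding bins, 4 of the 8 were above 0, so this holds for the whole rows and not along them. Of 14 ERAD genes compared outside the members, 5 were above 0 and 9 below over whole rows. DERL2, the paralog of DERL1, stood at 32.8, 38.5 and 29.6, but its 5′ UTR bins held 49.7%, 49.4% and 50.0% of its depth, a share reached by 2.09%, 3.24% and 2.15% of genes. DERL2 overlaps MIS12 in the gene table, and whether reads of MIS12 enter its 5′ UTR was not tested.

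Of the translocation genes, SEC61A1 is the pore subunit of the channel, SEC61B a small accessory subunit, SEC63 the membrane J-domain protein that recruits BiP to the channel, and SSR1 and SSR3 are subunits of the translocon-associated TRAP complex. SEC61A1 stood at 166.7 in the parental, 132.4 in the AZC + MG132 and 168.7 in the CRISPR table, and SEC63 at 78.4, 62.7 and 83.9. Both were lowest in the treated table, at -0.33 and -0.32 against parental. SSR3 stood at 264.7, 332.02 and 285.3, with a treated ratio of 0.33 that was 0.46 in the first and -0.26 in the last 100 coding bins. SEC61B stood at 79.96, 88.5 and 97.6 and had the highest CRISPR ratio of the set, 0.29. SSR1 stood at 193.1, 193.7 and 207.7. All 5 were above 0 in CRISPR against parental under each of the 3 scalings, at 0.02 to 0.29, while the last 100 coding bins of SEC63 gave -0.07. Of all genes 50.5% were above 0. Among 10 translocon and signal peptidase genes outside the members, 6 were above 0 and 4 below, from -0.41 to 0.41.

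Members that hold ERSE or ERSE-II were on both sides of parental in the treated cells. Over these 10 genes the treated median was -0.13, and 3 of them (HSPA5, XBP1 and HERPUD1) were above 0. Over the 22 members whose promoter window held neither, the median was 0.03, and 12 were above 0. HSPA5 and XBP1 at 0.66 and 0.79 hold the same fixed ERSE letters as CRELD2 at -0.73 and PDIA6 at -0.32. In CRISPR against parental the medians were -0.17 and -0.12.

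Footprints of the members lay nearer the 5′ end in the treated table. The 5′ UTR bins held 2.59% of the members' summed depth in the parental, 5.57% in the AZC + MG132 and 3.04% in the CRISPR table. The share was higher in the treated than in the parental table for 30 of 34 members, and for 80.3% of all 7073 genes. PDIA4, CRELD2, ERO1A and DERL2 were the exceptions. In the CRISPR table it was higher than parental for 17 of 34 members, and for 51.9% of all genes. CALR stood at 1.93%, 7.21% and 3.05%, HSPA5 at 6.23%, 10.6% and 9.02% and SEC61B at 13.4%, 22.4% and 15.8%. The members' median share was below that of all genes in each table: 2.01% against 5.34% in the parental, 3.65% against 9.87% in the treated and 1.95% against 5.79% in the CRISPR table.

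**Figure D4:**
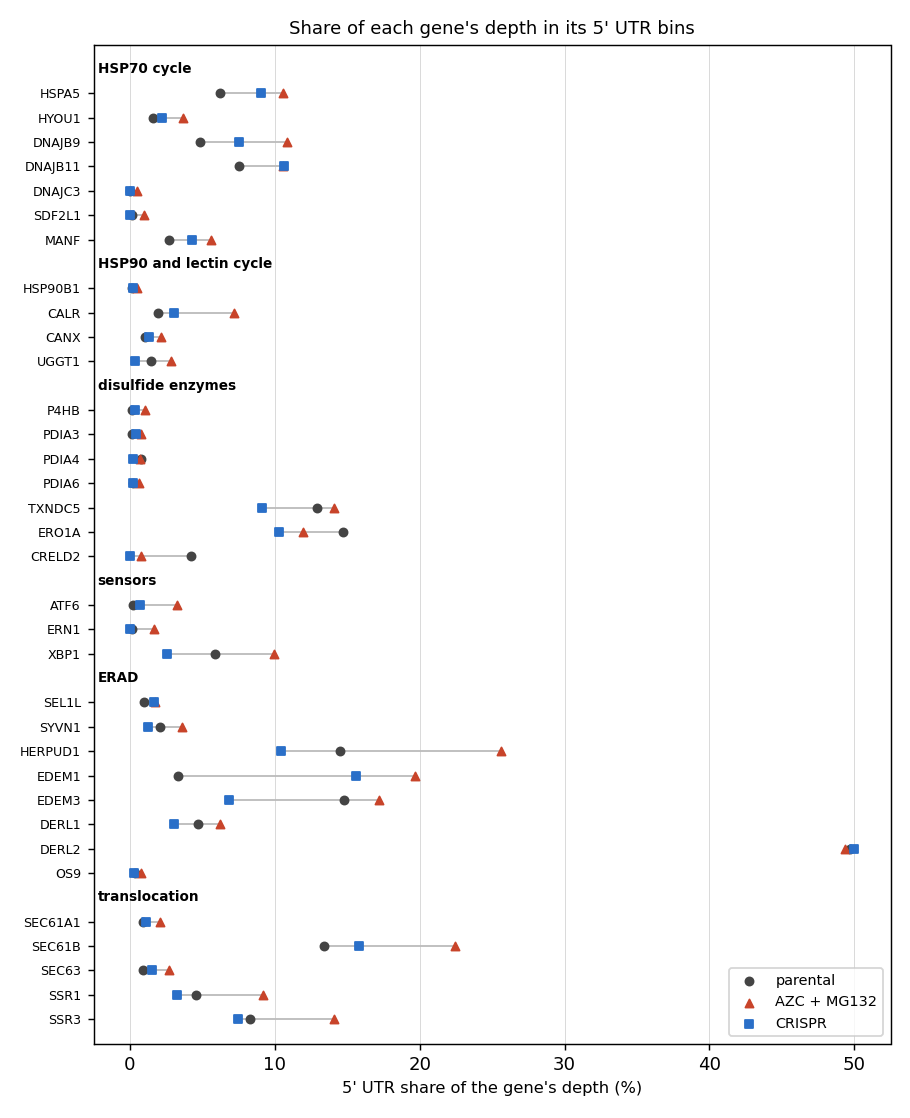
Percent of each member's footprint depth in its 5′ UTR bins in the parental (circle), AZC + MG132 (triangle) and CRISPR (square) tables. The treated table lies to the right of parental for 30 of 34 members, and DERL2 stands apart near 50.0% in the CRISPR table.

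Within the coding bins, depth at the start was compared as the 5′ share, the first 20 bins' mean divided by the overall coding mean. The members' median 5′ share was 0.75 in the parental, 1.10 in the AZC + MG132 and 0.62 in the CRISPR table, against 0.93, 1.42 and 0.96 for all genes. On the log2 scale the treated share exceeded parental by a median of 0.63 over the members and 0.60 over 6880 genes. These medians were close to each other. The difference was above 0 for 31 of 34 members (91.2%) and for 79.7% of all genes. For HSP90B1 the 5′ share was 0.447 in the parental, 0.885 in the treated and 0.519 in the CRISPR table, and for P4HB 0.503, 0.993 and 0.521. EDEM3 stood at 0.288 in the parental and 1.92 in the treated table, the widest log2 difference of the set. HSPA5 stood at 0.669, 0.706 and 0.685, nearly level, and SDF2L1, HERPUD1 and CRELD2 were slightly lower in the treated table.

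**Figure D5:**
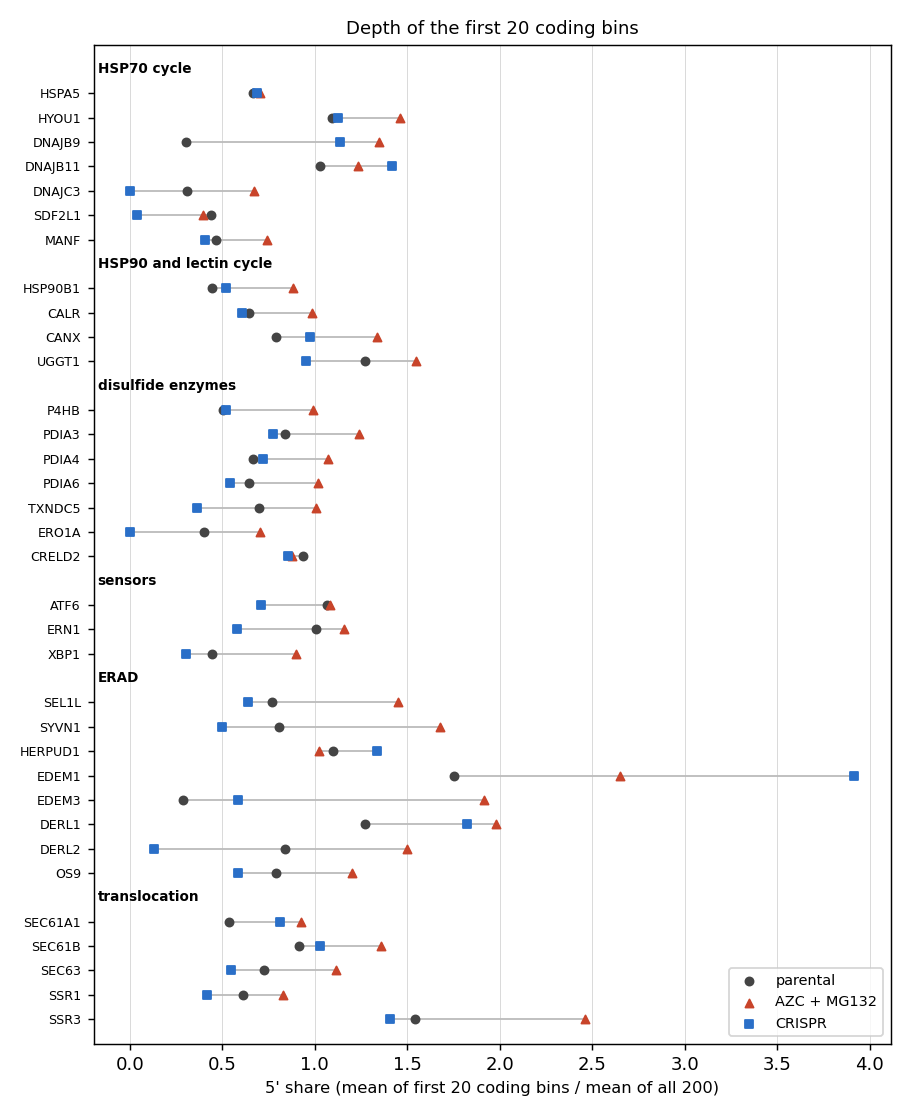
The 5′ share of each member (first 20 coding bins over all 200, both as means) in the parental (circle), AZC + MG132 (triangle) and CRISPR (square) tables. The treated table lies to the right of parental for 31 of 34 members; HSPA5 (0.669, 0.706 and 0.685) is nearly level.

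In CRISPR against parental the members' median difference in 5′ share was -0.12 on the log2 scale, with 14 of 32 above 0, against 0.10 over 6673 genes, of which 55.9% were above 0. DNAJC3 and ERO1A had no depth in the first 20 coding bins of the CRISPR table and gave no value. The part of the sparser coverage of the CRISPR table in these 5′ shares was not tested. The direction of the members' median difference turned with the window, to 0.07 for the first 10 bins.

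The same coding bin was highest in all 3 tables, within 2 bins, for 6 of 34 members (17.6%) against 10.2% of all genes. They were CALR, HSP90B1, P4HB, PDIA4, SEC61B and TXNDC5, and for P4HB, PDIA4 and TXNDC5 that bin was one of the last 2 coding bins. The members were also deeper, with a median parental depth of 44910 against 13554, and the part of depth in this count was not tested.

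Other genes of the pathway, 68 in 7 lists outside the members, put the members in context; 62 were compared. In the treated cells 3 of the 62 were past 2-fold higher, where 0.866% of all genes were. The median over the 62 was 0.01. Of the PERK arm, ATF4 stood at 135.2, 1048 and 230.5, and DDIT3 (CHOP) at 7.01, 57.97 and 10.0 in the parental, AZC + MG132 and CRISPR tables. The 5′ UTR bins held 74.8%, 31.7% and 77.4% of the ATF4 depth and 69.5%, 40.8% and 59.3% of the DDIT3 depth. These levels thus count much depth outside the coding bins. PPP1R15A (GADD34), which reverses the translation block, stood at 5.64, 44.8 and 2.79, under the minimum in the parental and CRISPR tables, and CHAC1 was listed in the treated table only, at 27.1. PERK itself (EIF2AK3) stood at 11.8, 14.9 and 11.4. TRIB3, another target of the arm, stood at 4.65, 4.91 and 2.17, under the minimum in each table. Of this arm, treated ratios could be given for ATF4 (2.96), DDIT3 (3.05) and EIF2AK3 (0.34). Those of ATF4 and DDIT3 were above that of HERPUD1. OST4, a subunit of the oligosaccharyltransferase, was at 1.02.

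Of the signal recognition list, 7 of 8 genes were above 0 in the treated cells with a median of 0.22 and none past 2-fold. In CRISPR against parental none of the 62 genes was past 2-fold and the median was -0.06. Between the edited and the treated cells ERP44, which retains oxidases in the early secretory pathway, was at 1.03 and UBE2J1, an ER ubiquitin-conjugating enzyme, at 1.40. MBTPS1, the protease that cleaves ATF6, was at -1.26 there, with ATF4 at -2.19 and DDIT3 at -2.53.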

How the data were processed

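The deposited values were 3 tables, 1 per condition, of log2 values the authors made per bin: log2(x + 1) of summed read depth x, to 2 decimals, in 400 bins per RefSeq transcript (100 for the 5′ UTR, 200 coding, 100 for the 3′ UTR, as read from the values). Reads were aligned with Bowtie2 and TopHat2 to hg19, per the submitters' processing notes; versions, and how the 2 libraries of a condition were pooled, are not given in the sources used here. Because the 400 columns are bins and not samples, replicates cannot be compared. Depth counts bases, so no counting interval was computed.

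The values were turned back into depth with Python 3.11.15, numpy 2.4.6 and pandas 2.3.3. Coding bins held the deposited value of the row above, which was subtracted: 5.68%, 5.23% and 5.79% of low coding bins were whole before, in the parental, AZC + MG132 and CRISPR tables, and 100% after, within the rounding error. Names came from RefSeq GRCh38.p14, which left 219, 211 and 237 rows unnamed (3.93%, 6.02% and 3.11% of depth); they stayed in the totals. A gene is represented by its row with most summed depth. Ratios were taken with 0.5 added to each summed depth (the pseudocount), for genes above the lower quartile of row depth (3187, 2614 and 3697) in both tables. Ratios were recomputed under other scalings, bins, minimums and rows.

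The members, the pathway and marker lists and the rule for named genes were chosen with earlier results of these data known. The rule names, per comparison, members past 2-fold, the 5 highest and 5 lowest ratios, and HSPA5, HERPUD1, XBP1, ATF6 and ERN1; other members were added for their role. Depth per coding base and protein features, which the plan also held, were not computed, since no transcript lengths or proteins were used here. The result of 1 gene of the pathway lists is not reported here.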

Additional observations from a re-analysis of the deposited data

How the results depend on the processing

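With 1 table per condition, changes are judged by size: a median that moved by under 0.1 (log2) and a count or share within 1.5 times are taken as kept. The 19 values that moved further follow. For AZC + MG132 against parental, the members' median was -0.18 without the first 20 and last 20 coding bins and -0.34 in the last 100, where the median of all genes was also lower (-0.39). In the last 100 bins 0 members were past 2-fold higher and 1 lower (EDEM1), where 1.23% and 12.6% of all genes were. With a level minimum 4 times higher, which kept 28 members, 0 were higher (0.314% of all genes). The median 5′ shift was 0.84 for the first 10 bins and 0.50 for the first 40. For CRISPR against parental, 1 member was past 2-fold lower in the first 100 coding bins (DNAJC3; 5.05% of all genes) and 1 in the last 100 (EDEM1; 4.56%), and the 5′ shift was 0.074 for the first 10 bins. For CRISPR against AZC + MG132, scaling to the median ratio, or totals without the most abundant 1% of rows, gave 0 higher and 2 lower, where 3.57% and 3.53% of all genes were higher and 2.94% and 3.01% lower. The first 100 bins gave 3 lower (7.14% of all genes) and the higher minimum 0 (1.01%). The median there was -0.0020 without the outer coding bins and 0.16 in the last 100, and the 5′ shift was -0.51 for the first 40 bins. Of 417 values of named members under an alternative, 8 moved by over 1.5-fold. A change of sign was counted only for ratios past 2-fold at the main setting, those of HERPUD1 and TXNDC5, and 0 were found. Smaller ratios did change sign. For AZC + MG132 against parental, SSR3 went from 0.33 to -0.26 and ATF6 from 0.08 to -0.14 in the last 100 coding bins. The cause was not tested. Leaving out DERL2 and TXNDC5, chosen after seeing the data, kept all 3 medians within 0.1. No paired analysis was possible because both libraries of a condition enter 1 table.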
